A study of Homo sapiens with 4 samples.

Results

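The ribosomal protein genes encode the proteins of the cytoplasmic ribosome. Members were chosen by symbol alone, as RPL or RPS followed by a number and at most a final A or X, with the stalk genes RPLP0, RPLP1 and RPLP2 added. Of 26364 genes in the count tables, 76 met this rule, 46 of the large subunit and 30 of the small subunit. Messenger RNA was sequenced in NTERA2, a human embryonal carcinoma line. Replicates 1 and 3 are labelled BEND3 LacZ, replicates 1 and 2 are labelled BEND3 sh60, and all 4 libraries come from cells kept in high-glucose DMEM with serum and antibiotics. The labels do not spell these names out, and they are taken here to mean a control hairpin (LacZ) and a hairpin aimed at BEND3 (sh60). They do not say how the hairpin was delivered, when cells were harvested or whether replicates came from separate cultures, so the p-values cover nothing beyond the spread of these 4 samples, and that spread may be technical.

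A ribosome holds a single copy of nearly every ribosomal protein, so cells make these proteins in matched amounts. Their mRNAs belong to the TOP class, which begins with a C followed by an unbroken run of pyrimidines (C or T in DNA letters), the 5′ terminal oligopyrimidine tract. The protein LARP1 and the kinase mTOR control the translation of this class through that tract. When ribosome assembly fails, free RPL5 and RPL11 bind MDM2 with 5S RNA and so release p53. BEND3 is a repressor with BEN domains that is known, among other sites, from silent ribosomal RNA genes.

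The libraries held 30338285 to 44788461 counts, and replicates of either group differed by more than counting noise. The targeted gene BEND3 was at 68.8 and 79.3 CPM (counts scaled to library size) in LacZ and at 55.7 and 51.9 CPM in sh60, 1.38-fold lower (-0.46 on the log2 scale, SE 0.098, with an adjusted p of 0.00168 in edgeR's quasi-likelihood test). The 8 embryonal carcinoma markers, among them POU5F1, summed to 3850 to 4029 CPM per library. Of these 8, SOX2 rose (log2 fold change 0.31) and NANOG (-0.25), TDGF1 (-0.49) and SALL4 (-0.31) fell, and without LacZ replicate 3 none of the 8 passed (1 higher and 1 lower at unadjusted p under 0.05 in edgeR). The labels call the line a lung carcinoma, but 5 lung epithelium markers summed to 0.0221 to 0.0712 CPM, with 2 of them at 0 in every library. Of 4 blood markers, 2 were at 0. The sum was 0.285 and 0.466 CPM in LacZ and 0.910 and 0.508 CPM in sh60. LYZ, the only 1 tested, was higher in edgeR (log2 fold change 1.31) at this low level. That call was lost with DESeq2 and without LacZ replicate 1 or sh60 replicate 1. The 4 fibroblast markers summed to 74.2 and 60.6 CPM in LacZ and to 79.4 and 81.5 CPM in sh60. Among them LUM rose, from 12.1 and 5.75 CPM in LacZ to 27.0 and 28.4 CPM in sh60 (edgeR adjusted p = 8.69e-06). PDGFRA fell (-0.30, edgeR adjusted p = 0.0455). That call was lost with DESeq2, with library totals and without LacZ replicate 1, LacZ replicate 3 or sh60 replicate 1. The part of the markers in the results for ribosomal protein genes was not tested. In bulk RNA, fewer cells of a type and less RNA per cell cannot be told apart.

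The starts of the genes show which members carry the tract. RefSeq (GRCh38.p14) gave a start for 61 of the 76 members. Below are 40 bases for 7 members that fell in sh60 and 5 that did not pass the test, each with 25 bases before the start and 15 from it, 5′ to 3′ on the strand of the gene. Capitals mark the pyrimidine run that passes through the first transcribed base. The first 7 are RPL27A (chr11:8682767-8682806, plus strand), RPL28 (chr19:55385907-55385946, plus), RPL38 (chr17:74203653-74203692, plus), RPL18 (chr19:48619164-48619203, minus), RPS3 (chr11:75399493-75399532, plus), RPL15 (chr3:23916520-23916559, plus) and RPS4X (chrX:72277234-72277273, minus).
RPL27A: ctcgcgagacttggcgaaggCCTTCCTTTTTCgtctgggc
RPL28: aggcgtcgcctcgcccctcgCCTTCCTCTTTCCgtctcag
RPL38: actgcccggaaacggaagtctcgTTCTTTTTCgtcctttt
RPL18: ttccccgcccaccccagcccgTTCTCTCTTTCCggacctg
RPS3: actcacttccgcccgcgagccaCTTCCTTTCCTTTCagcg
RPL15: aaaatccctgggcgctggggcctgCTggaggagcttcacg
RPS4X: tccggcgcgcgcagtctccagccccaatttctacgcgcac

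The 5 that did not pass are RPS27 (chr1:153990737-153990776, plus), RPS6 (chr9:19380222-19380261, minus), RPLP1 (chr15:69452793-69452832, plus), RPLP2 (chr11:809942-809981, plus) and RPS13 (chr11:17077653-17077692, minus).
RPS27: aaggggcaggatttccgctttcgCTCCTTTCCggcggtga
RPS6: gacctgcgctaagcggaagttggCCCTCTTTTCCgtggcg
RPLP1: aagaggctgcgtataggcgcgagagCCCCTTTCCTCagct
RPLP2: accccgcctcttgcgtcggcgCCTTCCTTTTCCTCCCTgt
RPS13: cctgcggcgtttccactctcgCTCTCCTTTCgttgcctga

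Tracts of this kind stand in both sets. At the RefSeq start, 41 of 61 members (67.2%) had a C followed by pyrimidines in a run of at least 5, against 4.04% of 27305 genes with a window of the same length. Counted from the start onwards, the matched members had a median of 7 unbroken pyrimidines, and the longest stretch had 19. It was present in 9 of 13 matched members that fell and in 31 of 47 that did not pass. RPL15 and RPS4X, which fell, have no such run at the annotated base, and a start used in these cells may differ from that base.

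Motifs were searched on both strands of the 300 bases from 250 before to 50 after the start. CCGGAAG, the core bound by ETS factors such as GABPA, was in 34.4% of members and 10.7% of all genes. AAGATGG, the core of YY1, was in 13.1% and 6.06%, and it shares bases with the ETS core wherever that core is followed by an A, a T and a pair of G. The sequence of the TATA box, TATAAA, was in 8.20% and 12.0%, and CACGTG, the E-box that MYC binds, was in 4.92% and 7.43%. CCCACGCG, the site known for the BEN domain of BEND3, was in 0 of 61 members and 1.64% of all genes, while the CGCG that it contains was in 80.3% and 49.6%. A match describes these letters only.

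Ribosomal protein mRNAs were abundant in both groups. Levels between genes are compared as RPKM, the CPM per kilobase of annotated exon. The median member stood at 684 RPKM over the 4 libraries, against 5.68 RPKM for the 16040 genes tested, and 48 members exceeded 500 RPKM. The order was led by RPS2, a protein of the mRNA entry side, at 3542, 3730 RPKM in LacZ and 2872, 3160 RPKM in sh60. RPS6, the substrate of S6 kinase, at a mean of 2337 RPKM, RPLP1 at 2194 RPKM and RPS27 at 2004 RPKM were also among the 5 highest. On this scale the libraries of RPS6 and RPLP1 overlapped, as did those of RPLP1 and RPS27. RPL27A ranked 66 of 76 at 115 RPKM, with 149.5 and 152 in LacZ and 76.9 and 83.5 in sh60. Its annotated exons total 4879 bases, where the median member has 833, so this rank reflects length as well as counts. In CPM, which is not divided by length, RPL27A was at 730 and 741 in LacZ.

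**Figure D1:**
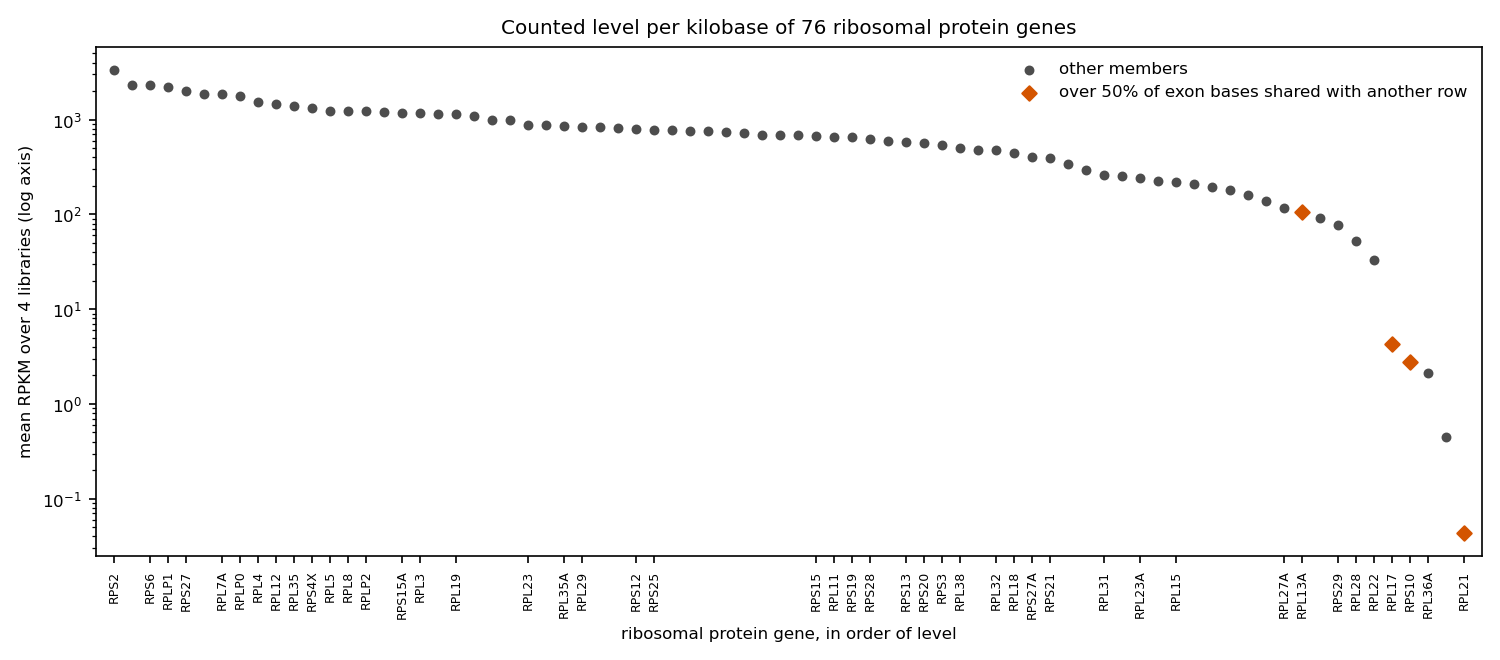
Mean RPKM over the 4 libraries (log axis) of each of the 76 ribosomal protein genes, in order of level and with the genes discussed in the text labelled, with members that share over 50% of their exon bases with another gene of the table as diamonds. Most members lie between 100 and 3326 RPKM, and 5 lie under 10 RPKM.

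The 5 members under 10 RPKM had few countable reads. RPL21 had 0 and 1 counts in LacZ and 0 and 3 counts in sh60, and it was the only member left untested. RPL36A stood at 2.10 RPKM, RPS10 at 2.75 RPKM and RPL17 at 4.25 RPKM.

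Shared annotation is visible for most of these. On the same strand, 99.3% of the exon bases of RPL21 were also annotated to RPL21P28, 62.5% of those of RPS10 to RPS10-NUDT3, 59.7% of those of RPL17 mainly to RPL17-C18orf32, and 15.6% of those of RPL36A to RPL36A-HNRNPH2. Those 4 partner genes had 0 counts in each library, as did RPL13AP5, which shares 55.8% of the exon bases of RPL13A. Reads that fit several genes or places were not counted, and the annotation of GENCODE holds 1059 pseudogenes named after members, with at least 1 for 75 of 76. The levels of these members are therefore uncertain. A member's own fold change compares the same countable part of the gene across libraries, and whether that part follows the whole mRNA was not tested.

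In sh60, 16 of the 75 tested members fell and 0 rose (edgeR's quasi-likelihood test, Benjamini-Hochberg adjusted p under 0.05 over all genes tested). The members' share that fell was 21.3%, where 13.0% of all tested genes fell and 15.8% rose. The shifts were small apart from RPL27A, with a median log2 fold change of -0.14 (0.905-fold) over the 75 members and quartiles of -0.23 and -0.06, against a median of -0.0042 over all genes. The estimate was negative for 67 members and positive for 8. At unadjusted p under 0.05, 28 members were lower and 0 higher. DESeq2 called 16 lower and 0 higher, with 22 and 0 unadjusted, and limma-voom called 17 and 0, with 31 and 0 unadjusted.

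Highly expressed genes as a whole lay closer to the members. Among 2413 genes of at least 100 CPM, a background chosen after seeing the data, 18.9% fell and 13.5% rose. All 16 members that fell were among the 68 members at this level. Without regard to the test, both sh60 libraries lay below both LacZ libraries for 42 members (56%), where 32.3% of all genes did so. Both lay above for 2 members, RPS20 and RPS27, where 32.1% of all genes did so, and the other 31 overlapped.

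**Figure D2:**
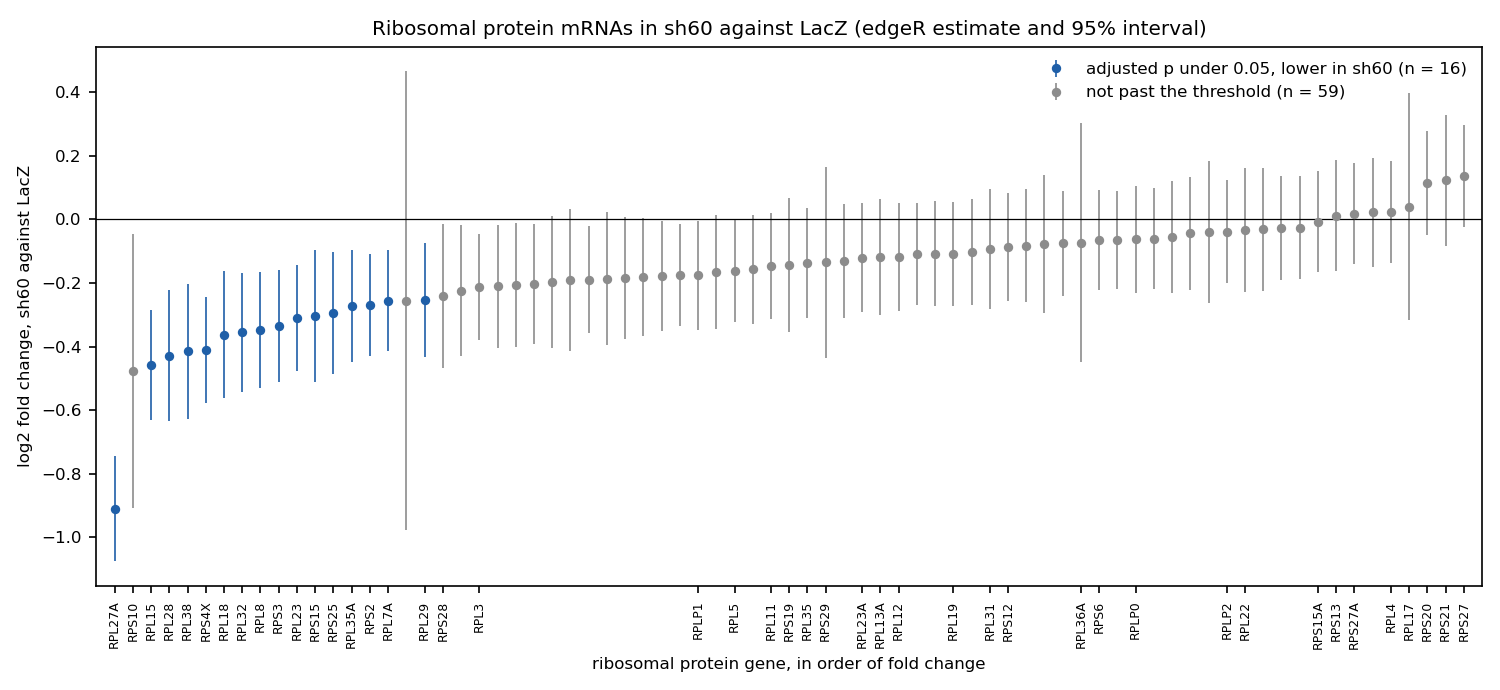
Log2 fold change, sh60 against LacZ, of the 75 tested members in order of size, the genes discussed in the text labelled, with 95% confidence intervals from edgeR. The 16 members past the threshold (blue) are all lower in sh60, RPL27A at -0.91 stands apart, and the others lie between -0.48 and 0.14.

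The libraries of each group were not alike for these genes, and sh60 replicate 1 stood apart. It was below sh60 replicate 2 for 68 of 75 members, where this held for 8175 of 16040 tested genes, and the median log2 difference was -0.18. LacZ replicate 1 was below LacZ replicate 3 for 64 members, with a median of -0.07. Set against the LacZ mean, the median member was at a log2 of -0.24 in sh60 replicate 1 and at -0.06 in sh60 replicate 2. The first lay below both LacZ libraries for 62 members and the second for 44. RPS29, a small zinc-binding protein of the 40S head, shows the spread, at 114 and 129.6 CPM in LacZ and at 85.2 and 136 CPM in sh60, where the sh60 libraries lie on either side of LacZ.

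The counts of calls moved with the libraries. Without sh60 replicate 1, 18 members (24%) were lower, where 16.3% of all genes were, and RPS20, RPS21 and RPS27 were higher, with a median log2 fold change of -0.06. Without sh60 replicate 2, 51 (68%) were lower and 0 higher, with a median of -0.24, where 15.5% of all genes were lower. Without LacZ replicate 1, 9 (12%) were lower, where 7.2% of all genes were. Without LacZ replicate 3, only RPL27A, RPL15 and RPS4X (4%) were lower, a smaller share than the 5.77% of all genes. The GC content of transcripts moved with this spread: over the 75 members, Spearman's rho between GC content and the difference of the sh60 replicates was -0.34, and between GC content and the fold change -0.22, across genes that share the same libraries. With GC and length trends removed, an alternative added after seeing the data, 34 members were lower and 1, RPS21, was higher, where 23.8% of all genes were lower. The part of GC content in the result was not tested beyond that.

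**Figure D3:**
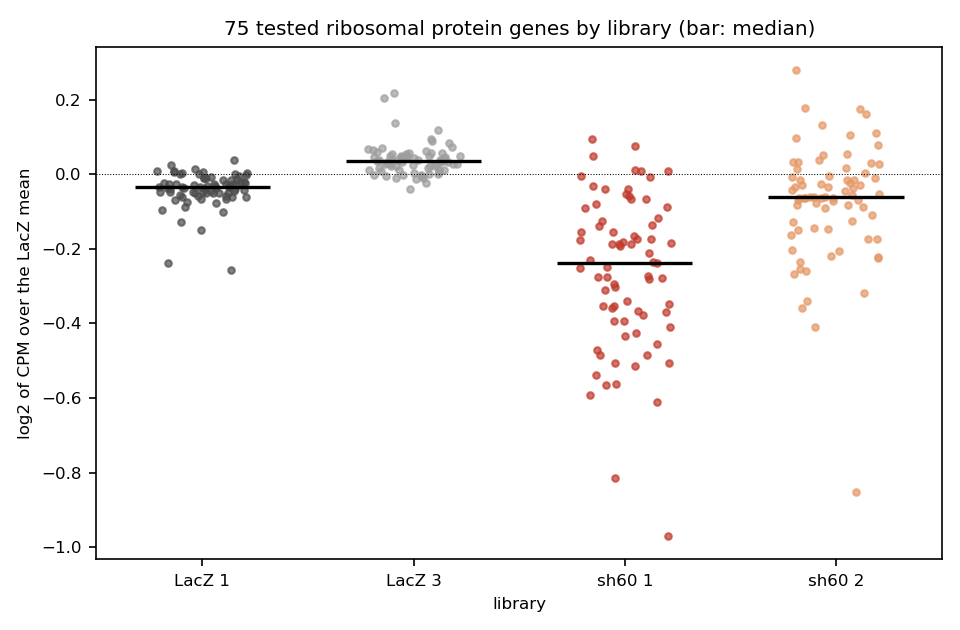
Log2 of each tested member's CPM over its mean in LacZ, by library, with the median as a bar (75 members per library). The medians are -0.03 and 0.03 in LacZ replicates 1 and 3, -0.24 in sh60 replicate 1 and -0.06 in sh60 replicate 2.

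RPL27A, a protein of the large subunit, fell most. It was at 729.6 and 741 CPM in LacZ and at 375 and 408 CPM in sh60 (hg19 chr11:8703995-8711419, plus strand). Both sh60 libraries lay far below both LacZ libraries. That is 1.88-fold lower (log2 fold change of -0.91, SE 0.079, and in edgeR an adjusted p = 1.70e-07), and over the 14 alternatives the log2 fold change ran from -0.97 to -0.85, past the threshold in each.

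RPL15 and RPS4X were the other 2 members past the threshold in all 14 alternatives. RPL15, a core protein of the large subunit mutated in some Diamond-Blackfan anaemia families, was at 1171 and 1215 CPM in LacZ and at 806 and 931 CPM in sh60 (log2 fold change -0.46, SE 0.083, edgeR adjusted p = 3.91e-04; chr3:23958295-23965187). RPS4X, the X-linked form of a protein in the body of the small subunit, was at 1390.5 and 1487 CPM in LacZ and at 1028 and 1136 CPM in sh60 (-0.41, SE 0.079, adjusted p = 7.16e-04; chrX:71492453-71497141). In neither gene did the groups overlap, and in both sh60 replicate 1 was the lowest library.

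Of the large subunit, 11 of 45 tested members (24.4%) fell, beside 13.0% of all genes and 18.9% of genes of at least 100 CPM. The median log2 fold change over the 45 was -0.15. With a library left out it ran from -0.24 (without sh60 replicate 2) to -0.06 (without sh60 replicate 1). RPL28 was at 303 and 322 CPM in LacZ and at 204 and 259.8 CPM in sh60 (log2 fold change -0.43, edgeR adjusted p = 0.00295). RPL38, which is needed in the mouse embryo for the patterning of the skeleton, was at 212 and 239 CPM in LacZ and at 149.8 and 189 CPM in sh60 (-0.41, adjusted p = 0.00464). RPL18 was at 433 and 449 CPM against 303 and 382 CPM (-0.36, adjusted p = 0.00778). In all 3, both sh60 libraries were below both LacZ libraries and the sh60 replicates were further apart than the LacZ replicates.

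The next large subunit members fell less. RPL32 was at 976 and 1018 CPM in LacZ and at 702 and 857 CPM in sh60 (log2 fold change -0.35, edgeR adjusted p = 0.00580). RPL8, which sits beside the peptidyl transferase centre, was at 1311 and 1366 CPM against 957 and 1148 CPM (-0.35, adjusted p = 0.00545). RPL23, another binder of MDM2 when free of ribosomes, was at 539 and 590.2 CPM against 457 and 453 CPM (-0.31, adjusted p = 0.00631), and it was the only member that fell whose sh60 replicate 1 was not the lower sh60 library. RPL35A was at 444 and 464 CPM against 349.5 and 402 CPM (-0.27, adjusted p = 0.0209). RPL7A (-0.26) and RPL29 (-0.25), named after their values were seen, complete the 11, and RPL3, the gene next to the threshold, had an adjusted p of 0.0527 at -0.21. RPL28, RPL38, RPL18, RPL32 and RPL8 passed in 13 of 14 alternatives and not without LacZ replicate 3. RPL23, RPL35A and RPL7A passed in 12 and not without either LacZ library, and RPL29 passed in 11, failing also with library totals. Of the 45, 7 were lower without LacZ replicate 1, 2 without LacZ replicate 3 and 34 without sh60 replicate 2.

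**Figure D4:**
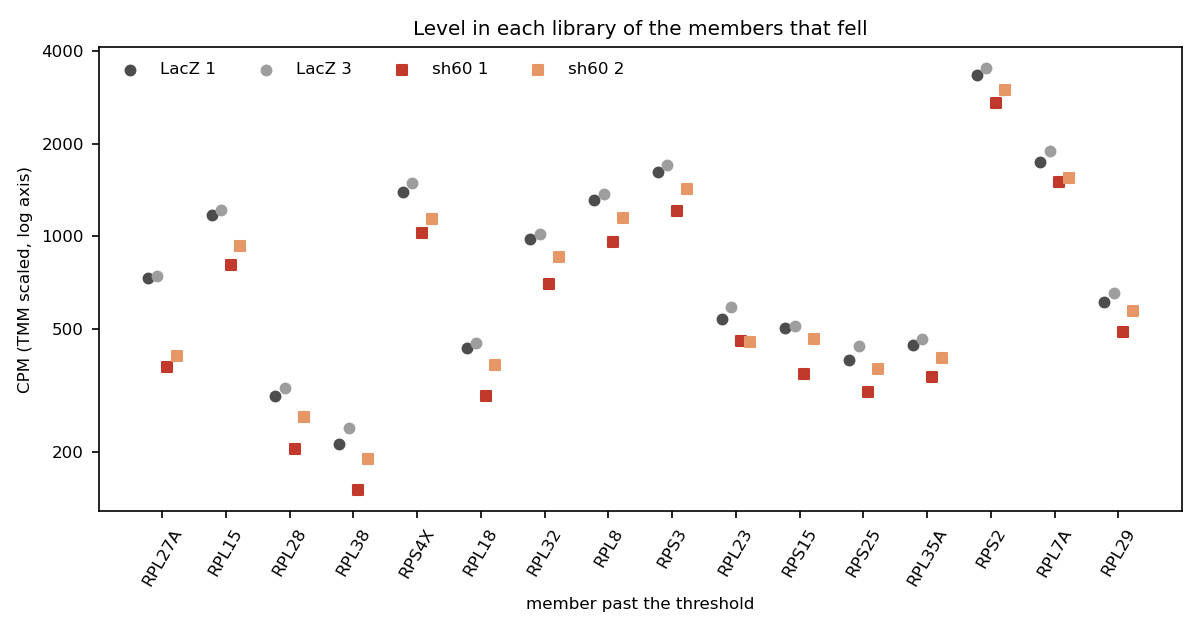
CPM (log axis) in each library of the 16 members that fell, with LacZ as circles and sh60 as squares. Every sh60 library lies below every LacZ library of the same gene, and sh60 replicate 1 is the lower sh60 library in 15 of the 16.

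In the small subunit, 5 of 30 tested members fell, with a median log2 fold change of -0.14 over the 30. That share, 16.7%, lies between the 13.0% of all genes and the 18.9% of genes of at least 100 CPM. Besides RPS4X and RPS25 (-0.29, named after its value was seen), these were RPS3, RPS2 and RPS15. The list of 8 proteins on the mRNA path and decoding side holds those 3, and none of its members rose. That is 37.5% of the list, beside 13.0% of all genes and 18.9% of genes of at least 100 CPM. The median log2 fold change of the 8 was -0.21. With a library left out it ran from -0.31 (without sh60 replicate 2) to -0.07 (without sh60 replicate 1). RPS3, at the mRNA entry, was at 1620.2 and 1700.2 CPM in LacZ and at 1211 and 1419.7 CPM in sh60 (-0.34, edgeR adjusted p = 0.00544). RPS2, also at the entry, was at 3336 and 3514 CPM against 2705 and 2976 CPM (-0.27, adjusted p = 0.0128), and RPS15, whose tail reaches the decoding site, was at 504 and 511 CPM against 357 and 465 CPM (-0.30, adjusted p = 0.0280). The groups did not overlap in any of the 3. RPS3 passed in 13 of 14 alternatives and not without LacZ replicate 3. RPS2 and RPS25 passed in 12 and not without either LacZ library, and RPS15 passed in 11, failing also without sh60 replicate 1. Without LacZ replicate 3, 0 of the 8 passed, with 2 at unadjusted p under 0.05, without LacZ replicate 1 only 1 did, and without sh60 replicate 2, 7 did. Of all 30, 2 were lower without LacZ replicate 1, 1 without LacZ replicate 3 and 17 without sh60 replicate 2. RPS28, also of this list, had an estimate of -0.24 with libraries that overlap.

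Other lists of the small subunit were short, and the lists were not compared by a test. RPS4X was the only one of 6 body proteins to pass. That is 16.7%, the share of the whole small subunit, beside 13.0% of all genes. The median log2 fold change of the 6 was -0.07, and it was -0.15 without sh60 replicate 2. RPS6, another of them, had an estimate of -0.07. It was at 1994 and 1968 CPM in LacZ and at 1827 and 1958 CPM in sh60, so that the nearest libraries of the groups almost meet. None of the 3 beak proteins passed edgeR's test or DESeq2's, a list too short to be told apart from the 13.0% of all genes. RPS10 alone reached an unadjusted p under 0.05, at -0.48 on only 65 to 117 counts per library, with an adjusted p of 0.0917. RPS12 was at -0.09 and RPS27A, made as a fusion with ubiquitin, at 0.02.

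The 5S particle of the large subunit is made of RPL5, RPL11 and 5S RNA. RPL5 was at 1292 and 1383 CPM in LacZ and at 1182 and 1207 CPM in sh60 (log2 fold change -0.16, 95% interval -0.32 to -0.0030, edgeR adjusted p = 0.120). RPL11 was at 426 and 455 CPM against 388 and 408 CPM (-0.15, interval -0.31 to 0.02, adjusted p = 0.185). The sh60 libraries were below the LacZ libraries in both, and 0 of the 2 passed with edgeR, DESeq2 or limma-voom, where RPL5 alone had an unadjusted p under 0.05 in edgeR. A list of 2 is too short to set beside the 13.0% of all genes that fell in edgeR. Both passed when GC and length trends were taken out, where 23.8% of all genes were lower. The median log2 fold change of the 2 was -0.13 without sh60 replicate 1 and -0.18 without sh60 replicate 2. It was -0.20 without LacZ replicate 1 and -0.11 without LacZ replicate 3.

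The P stalk recruits the GTPase factors of translation. RPLP0 was at 2303 and 2298 CPM in LacZ and at 2052 and 2354 CPM in sh60 (log2 fold change -0.06), which overlap. RPLP1 was at 1169 and 1214 CPM against 984 and 1126 CPM (-0.18, edgeR adjusted p = 0.117), which do not overlap. RPLP2 was at 617 and 608 CPM against 616 and 576 CPM (-0.04). With RPL12 at -0.12, 0 of the 4 stalk members passed with edgeR, DESeq2 or limma-voom, and RPLP1 alone had an unadjusted p under 0.05 in edgeR. With only 4 members, 0 calls cannot be told apart from the 13.0% of all genes that fell in edgeR. The median log2 fold change of the 4 was -0.09. It was -0.19 without sh60 replicate 2 and -0.06 without sh60 replicate 1.

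Around the exit of the nascent chain, 0 of 7 members passed, and 0 had an unadjusted p under 0.05 in edgeR or in DESeq2. A list this short cannot be told apart from the 13.0% of all genes that fell. Their estimates ran from -0.14 for RPL35 to 0.04 for RPL17, with a median of -0.09. RPL23A, a binding site of the signal recognition particle, was at -0.12, RPL19 at -0.11 and RPL31 at -0.09. The median of the 7 was -0.15 without sh60 replicate 2 and -0.01 without sh60 replicate 1.

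Some members hardly differed between the groups. Among the smallest estimates were those of RPS15A (-0.0071), RPS13 (0.01), RPS27A (0.02) and RPL4 (0.02). RPS15A was at 628 and 651 CPM in LacZ and at 637 and 636 CPM in sh60, with the sh60 pair inside the LacZ pair, and its 95% interval ran from -0.17 to 0.15. RPL22, a binder of small viral and cellular RNAs that ribosomes can do without, was at 66.7 and 74.0 CPM against 67.5 and 69.9 CPM (-0.03). For 31 members the whole interval lay within 0.3 of 0 on the log2 scale, and the median SE of the members was 0.0836.

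The largest positive estimate was that of RPS27, a zinc finger protein of the small subunit. It was at 667 and 674 CPM in LacZ and at 716 and 757 CPM in sh60, with both sh60 libraries above both LacZ libraries (log2 fold change 0.14, edgeR adjusted p = 0.199). Its paralog RPS27L, a known p53 target whose protein can replace it in the ribosome, rose. RPS27L was at 65.4 and 59.8 CPM in LacZ and at 96.8 and 112 CPM in sh60 (0.74, SE 0.097, adjusted p = 1.64e-05), a 1.67-fold higher level. It stayed past the threshold under each scaling, with DESeq2 and limma-voom and with any library left out.

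Of the other paralogs tested, RPL22L1 (-0.19), RPL26L1 (-0.27), RPL36AL (-0.17), RPL7L1 (-0.12) and RPL39L (-0.01), 0 passed, with RPL22L1 and RPL26L1 at unadjusted p under 0.05 in edgeR and 1 of the 5 in DESeq2. With GC and length trends removed RPL22L1, RPL26L1, RPL36AL and RPL7L1 were lower, without sh60 replicate 2 RPL22L1 and RPL36AL were, and RPL22L1 alone was without sh60 replicate 1 and with upper-quartile scaling. RPL3L and RPL10L were too low to be tested. RPSA and FAU, ribosomal protein genes whose symbols the rule misses, were at -0.04 and 0.09, and neither had an unadjusted p under 0.05 in edgeR or DESeq2. FAU was higher when sh60 replicate 1 was left out and when GC and length trends were taken out.

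Haploinsufficiency of many of these genes causes Diamond-Blackfan anaemia, a failure of red cell formation. Of 19 members on that list, 3 fell (RPL15, RPL18 and RPL35A) and 0 rose, with a median log2 fold change of -0.15. The share that fell, 15.8%, is near the 13.0% of all genes and below the 18.9% of genes of at least 100 CPM. RPS19, the gene most often mutated in that disease, was at 568 and 599.8 CPM in LacZ and at 457 and 599.5 CPM in sh60 (-0.14, edgeR adjusted p = 0.317), where sh60 replicate 2 lies within the LacZ pair. Without LacZ replicate 3, 1 of the 19 was lower, and without sh60 replicate 2, 13 were.

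Taken over all 76 members, the counts made up 5.30% and 5.51% of all counts in LacZ and 4.63% and 5.19% in sh60. The means were 5.41% ± 0.148 and 4.91% ± 0.395 (SD, n = 2 each), a difference of -0.50 percentage points. Both sh60 libraries were below both LacZ libraries. The exact two-sided permutation test gave p = 0.333, the smallest value that 2 libraries against 2 allow.

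The other TOP mRNAs of translation on a list of 19 tested genes were counted in the same way. Of these, 5 fell (26.3%, beside 13.0% of all genes and 18.9% of genes of at least 100 CPM) and 0 rose. At unadjusted p under 0.05 in edgeR and DESeq2, 0 rose as well. The median log2 fold change was -0.17. EIF3F, a subunit of initiation factor eIF3, was at 198 and 205 CPM in LacZ and at 129 and 147 CPM in sh60 (-0.54, edgeR adjusted p = 1.28e-04). EIF3K (-0.36), the nascent chain factor BTF3 (-0.30), HNRNPA1 (-0.30) and the elongation factor EEF2 (-0.26) were the others. EEF1A1 was at -0.06. With LacZ replicate 1 or 3 left out, 1 of the 19 was lower, with sh60 replicate 1 left out 10 were, and with sh60 replicate 2 left out 9 were.

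Among 38 ribosome assembly factors, 4 fell (10.5%, beside 13.0% of all genes) and 1 rose (2.63%, beside 15.8%). Their median log2 fold change was -0.08. NIP7 (-0.31), LTV1 (-0.31), MDN1 (-0.26) and LYAR (-0.24) were lower. SBDS, which frees new large subunits of eIF6 and is mutated in Shwachman-Diamond syndrome, was at 83.0 and 77.0 CPM in LacZ and at 119.8 and 106 CPM in sh60 (0.49, edgeR adjusted p = 5.64e-04). Without LacZ replicate 1 or 3, 0 were lower (0 and 1 at unadjusted p under 0.05), and without sh60 replicate 1 or 2, 13 and 7 were. SBDS passed in edgeR except without LacZ replicate 3.

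Of 23 genes that control the supply of ribosomal proteins, 5 rose (21.7%, beside 15.8% of all genes) and 2 fell (8.7%, beside 13.0%). Those that rose restrain mTOR or p53: MDM2 (0.84), SESN1 (0.73), SESN2 (0.73), DDIT4 (0.64) and TSC1 (0.24). MDM2, SESN1 and SESN2 are also p53 targets, and the p53 target CDKN1A was at 64.8 and 42.8 CPM in LacZ and at 226 and 257 CPM in sh60. LARP1, which binds the TOP tract, was at 431 and 432 CPM in LacZ and at 359.7 and 352 CPM in sh60 (log2 fold change -0.28, edgeR adjusted p = 0.0108). GABPA, an ETS factor, was at 92.3 and 88.1 CPM against 77.4 and 62.9 CPM (-0.36, adjusted p = 0.0114). Both were without overlap, and without LacZ replicate 1 or 3, 0 of the list were lower (0 and 1 at unadjusted p under 0.05), while 6 were without sh60 replicate 1 and 8 without sh60 replicate 2. TSC1 lost its call with upper-quartile scaling and without LacZ replicate 1 or 3. MYC was at -0.24 with an adjusted p of 0.0570, and MTOR at -0.07.

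The 76 tested proteins of the mitochondrial ribosome, which share no gene with the cytoplasmic one, had a median log2 fold change of -0.03. Of these, 5 fell (6.58%, beside 13.0% of all genes) and 1 rose (1.32%, beside 15.8%). MRPS34 (-0.56), MRPS2 (-0.50) and MRPL37 (-0.31) were lower with the smallest p, MRPL22 and MRPS15 also fell, and MRPL17 (0.44) was higher. With a library left out, the median of the list ran from -0.07 (without sh60 replicate 2) to 0.01 (without sh60 replicate 1). MRPL17 lost its call without LacZ replicate 3, where 0 were higher (1 at unadjusted p under 0.05). The difference between the lists was not tested.

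**Figure D5:**
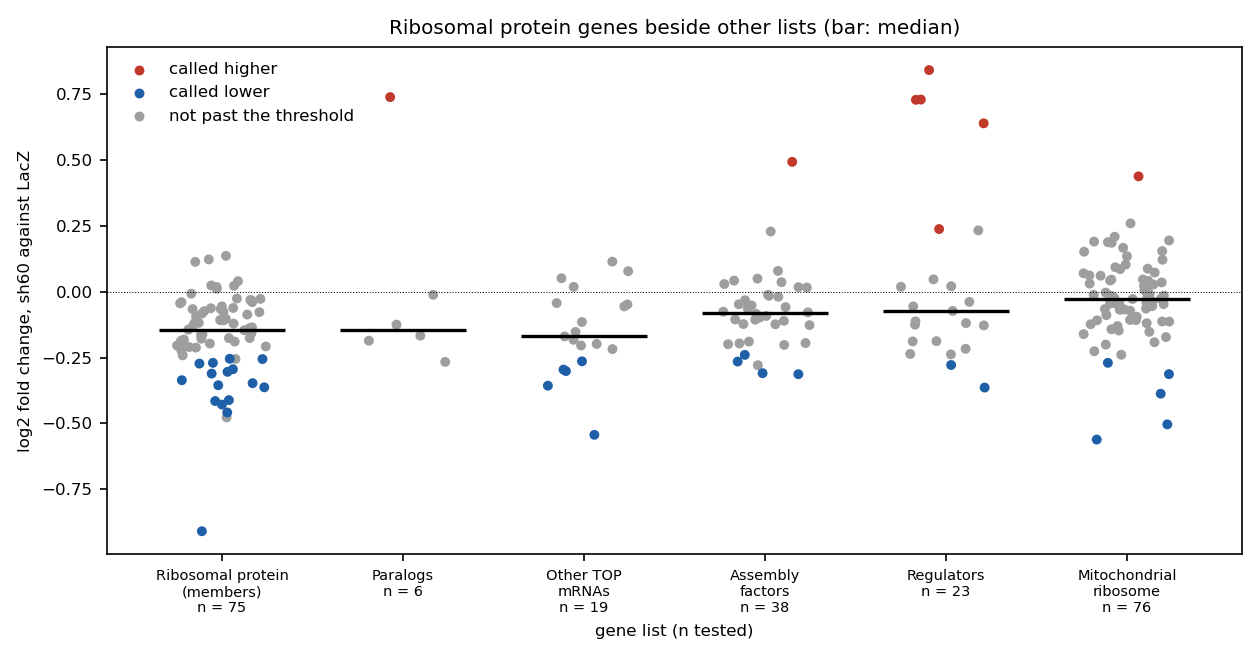
Log2 fold change, sh60 against LacZ, of the tested genes of 6 lists, with the median as a bar and genes past the threshold in red (higher) or blue (lower). The medians are -0.14 for the 75 ribosomal protein genes, -0.17 for 19 other TOP mRNAs, -0.08 for 38 assembly factors and -0.03 for 76 mitochondrial ribosomal proteins, and the point at 0.74 among the paralogs is RPS27L.

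The members that fell had a median of 720.0 RPKM and a median exon length of 916 bases, against 687 RPKM and 786 bases for the members that did not pass. Their median GC content was 50.1% against 47.9%, and the relation of the fold change to GC content, a rho of -0.22, was the largest in size of the 4 computed. Over the 15106 tested genes with a GC value, that rho was -0.11. With GC and length trends removed, the members called lower went from 16 to 34. The share of all genes called lower went from 13.0% to 23.8%. Over the 75 members, Spearman's rho of the fold change was -0.10 with exon length, 0.0058 with the level per kilobase and 0.17 with the number of pseudogenes, each across genes of the same 4 libraries. Members were short next to other genes, with a median exon length of 833 bases against 3200.5 over all tested genes.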

How the data were processed

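Single-end mRNA reads of 4 NTERA2 libraries were counted per gene. The deposited values are raw counts, made by the authors with featureCounts of Subread 2.0.0 over exons with strand setting 2, per the file headers. That command sets no option to count multi-mapping reads or reads shared by overlapping genes, so neither kind was counted. STAR 2.7.6a and hg19 are named in the submitters' processing notes. Gene coordinates are on hg19, and those of RefSeq windows on GRCh38.p14.

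Counts were tested with edgeR 4.0.16 in R 4.3.3 (quasi-likelihood test, TMM scaling, filterByExpr, group as the only term). This kept 16040 of 20937 genes with a count. Adjusted p-values are Benjamini-Hochberg values over these genes, the threshold was 0.05, and intervals are at 95%. The common biological coefficient of variation was 7.33%. CPM use library totals scaled by TMM, and the unscaled totals were 42538561, 30338285, 33798665 and 44788461 counts (LacZ 1, LacZ 3, sh60 1, sh60 2). Counts of the replicates of a group varied beyond counting error: the chi-square per degree of freedom was 5.89 for LacZ and 15.8 for sh60.

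Members and lists were chosen with earlier results of these data known. Named genes were RPL5, RPL11, RPLP0, RPLP1, RPLP2, RPS6, RPS27A, RPL22, RPS27, BEND3, CDKN1A, the 10 largest falls and rises past the threshold, the 5 smallest changes, the 5 highest and 5 lowest levels per kilobase, up to 4 genes per role or list with the smallest p, and every paralog. Some genes that this rule names are not reported here. A few others stand beside them as examples chosen after their values were seen (RPL3, RPL7A, RPL13A, RPL29, RPS25, RPS29, RPS19, RPS20, RPS21, MYC, MTOR, EEF1A1, HNRNPA1, TSC1, GABPA, LARP1, LYAR, MRPL22 and MRPS15). The alternatives were upper-quartile scaling, DESeq2 size factors or library totals in place of TMM; DESeq2 1.42.0, limma-voom (limma 3.58.1) or robust edgeR as the test; no filter, or 1 CPM in 2 libraries; a length trend removed; and each library left out. Removal of GC and length trends was added after seeing the data, with the GC content of GENCODE transcripts, which 94.2% of tested genes, and all 75 tested members, have under their symbol.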

Additional observations from a re-analysis of the deposited data

How the results depend on the processing

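The median of the members stayed negative in all 14 alternatives, from -0.24 (without sh60 replicate 2) to -0.0612 (without sh60 replicate 1). The members called lower ran from 3 to 51 and those called higher from 0 to 3 with a library left out, and over all tested genes the calls ran from 956 to 2697 lower and from 1331 to 2789 higher. With the length trend removed 1 member was higher. With GC and length trends removed, 34 members were lower and 1 higher, and 3592 genes in all were lower and 2845 higher, where the reported fit had 2084 and 2540. Upper-quartile scaling gave 23 lower members and gave over all genes 2575 lower and 2424 higher. With a library left out, the lone sample of a group is assumed to vary like the pair of the other. For the genes named, 871 values kept their side of the threshold, 33 lost it and 34 gained it. No paired analysis was possible because the groups share only replicate number 1. Depth did not limit most members, 71 of which had at least 1000 counts in every library, and 2 libraries a group limit the precision.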

Other observations

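The count tables list 28 pseudogenes of members, of which 10 passed the filter on low counts. In edgeR, 2 of the 10 rose (20%, near the 15.8% of all tested genes) and 0 fell. Of these, RPL23AP53 was at 9.09 and 7.62 CPM in LacZ and at 13.9 and 12.0 CPM in sh60 (log2 fold change 0.62, edgeR adjusted p = 0.00255). RPL23AP7 was at 3.49 and 3.89 CPM in LacZ and at 6.08 and 5.12 CPM in sh60 (0.60, adjusted p = 0.0132), and it lost the call without LacZ replicate 1 and without sh60 replicate 1, where RPL23AP53 was the only one of the list still higher. The other 8 did not pass. RPL23A, the parent of RPL23AP53 and RPL23AP7, was at 241 and 254 CPM in LacZ and at 219 and 236 CPM in sh60. The 28 pseudogenes together held 25.2 and 25.8 CPM in LacZ and 34.2 and 31.6 CPM in sh60.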
